A study of Mus musculus with 6 samples.

Results

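T and B lymphocyte markers are the genes by which T cells and B cells are recognised in a tissue: the chains of their antigen receptors, the coreceptors beside them, and the kinases, adaptors and transcription factors that act behind them. The list held 29 such genes, chosen by name, with earlier results of these data known. Where a gene had several probes, the brightest was taken, provided that 3 or more of the 6 arrays read it well above background. By this rule 28 of the 29 members were measured, among 21091 genes. They comprised 16 T cell genes, 9 B cell genes and 3 genes that both lineages, and some other leukocytes, express. Trat1, an adaptor of the T cell receptor complex, was well above background on only 2 arrays, 1 of each genotype, and was not tested.

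The arrays measured RNA of abdominal white adipose tissue (WAT) of female C57/BL6 mice at 30 wk of age, from hNAG-1 mice and from WT mice. hNAG-1 mice carry a transgene for human NAG-1, also called GDF15, a secreted protein of the TGF-β superfamily. The mice came from a single transgenic line, and per the study's methods the transgene is expressed in most tissues and highly in white and brown fat. Each genotype had 3 arrays, and each array held RNA pooled from 2 mice, so 6 mice per genotype were sampled.

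Fat depots hold resident and recruited lymphocytes among the adipocytes, and lymph nodes are embedded in several of them. T cells recognise antigen through the T cell receptor, whose CD3 and zeta chains pass the signal to the kinases LCK and ZAP70. B cells do the same through surface immunoglobulin, whose signal runs through the CD79A and CD79B chains. In RNA of a whole tissue, more lymphocytes and more RNA per lymphocyte cannot be told apart.

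Between 70.8% and 81.7% of the probes were well above background on an array, and every pair of arrays correlated between 0.964 and 0.987 over the genes tested. hNAG-1 replicate 1 was hybridised beside the 3 WT arrays on 1 slide. The other 2 hNAG-1 arrays occupied another slide, on which no WT array lay. WT replicate 2 differed from the other arrays in pancreatic genes. The 5 measured genes of the exocrine pancreas summed to 1381, 1619 and 1578 in the hNAG-1 pools and to 977, 10575 and 1653 in the WT pools. Signals are given here as scaled signals, in which the 75th percentile of each array is set to 1000. Levels of different genes are not compared, because each probe has its own brightness.

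Probe sequences are shown for 4 T cell members because their genomic positions bridge an intron, so that only spliced RNA pairs with the whole probe, and for Cd22 because its values departed from those of the other members. All are 60 bases long, 5′ to 3′, as given in the array files. Positions follow the array design (mouse build mm7). Cd3d lay at chr9:44920433-44920664, Cd3g at chr9:44907978-44908562, Cd247 at chr1:165827148-165828166, Cd2 at chr3:101074696-101077875 and Cd22 at chr7:27806351-27806410. The first 4 spanned 232, 585, 1019 and 3180 bases of the genome, and the Cd22 probe spanned 60.
Cd3d: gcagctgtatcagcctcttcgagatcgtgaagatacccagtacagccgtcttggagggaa
Cd3g: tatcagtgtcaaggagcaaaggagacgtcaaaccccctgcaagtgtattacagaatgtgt
Cd247: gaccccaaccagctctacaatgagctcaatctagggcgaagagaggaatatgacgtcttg
Cd2: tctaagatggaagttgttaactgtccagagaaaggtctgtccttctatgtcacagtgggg
Cd22: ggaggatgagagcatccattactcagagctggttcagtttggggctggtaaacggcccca

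Promoter sequences before the start site are shown for Cd3d, Cd5 and Cd79a. Each of these holds both motifs marked in capitals below, which not every member does. RefSeq promoters on build GRCm38.p6 were at hand for 20 of the 29 members, and the 250 bases before the start were searched on both strands for 6 short motifs. The E-box CACCTG, of the kind that E2A proteins bind in lymphocytes, was in 12 of the 20 members (60.0%) and in 19.4% of all 27025 genes with a promoter in the table. The ETS core AGGAAG was in 13 of 20 (65.0%) and in 32.3% of all genes. The other motifs were in at most 3 members each: the RUNX core TGTGGT in 3 (15.9% of all genes), the EBF motif CCCNNGGG in 2 (13.4%), the TCF motif CTTTGAT in 2 (3.72%) and the octamer ATTTGCAT in 1 (1.81%). Occurrences of different motifs may share bases, and a match describes the letters only. The 3 promoters lie at chr9:44981536-44981785 on the + strand (Cd3d), at chr19:10738975-10739224 on the - strand (Cd5) and at chr7:24897247-24897496 on the + strand (Cd79a). Capitals mark CACCTG and AGGAAG on either strand, of which Cd3d held 2, Cd5 held 4 and Cd79a held 2.
Cd3d promoter: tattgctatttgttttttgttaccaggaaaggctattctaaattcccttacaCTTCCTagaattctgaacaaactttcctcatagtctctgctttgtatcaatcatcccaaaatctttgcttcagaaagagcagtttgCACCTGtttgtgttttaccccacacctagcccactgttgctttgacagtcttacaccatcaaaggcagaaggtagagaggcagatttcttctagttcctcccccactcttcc
Cd5 promoter: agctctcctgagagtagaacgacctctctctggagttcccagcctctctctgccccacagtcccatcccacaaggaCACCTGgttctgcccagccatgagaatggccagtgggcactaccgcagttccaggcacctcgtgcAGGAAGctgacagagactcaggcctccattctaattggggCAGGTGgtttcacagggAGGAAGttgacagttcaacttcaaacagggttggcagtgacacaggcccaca
Cd79a promoter: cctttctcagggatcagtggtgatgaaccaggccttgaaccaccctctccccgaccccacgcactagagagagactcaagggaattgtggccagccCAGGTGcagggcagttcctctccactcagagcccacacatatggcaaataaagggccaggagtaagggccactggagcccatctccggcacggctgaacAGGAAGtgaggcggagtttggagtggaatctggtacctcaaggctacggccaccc

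Among the lymphocyte markers a single array, hNAG-1 replicate 2, stood apart. It had the highest signal of the 6 arrays for 25 of the 28 measured members, including all 16 T cell members, 7 of 9 B cell members and 2 of 3 shared members, whereas it was highest for 29.7% of all genes. It was the lowest array for none of them. The signal on hNAG-1 replicate 2 was between 1.19 and 4.39 times the mean of the other 5 arrays, with a median of 2.35 times for T cell members and 1.77 times for B cell members. The exceptions were Cd37 and Blk, highest on WT replicate 2, and Cd22, highest on hNAG-1 replicate 3.

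Between genotypes, 24 of 28 members had a log2 fold change above 0 (85.7%), as did 61.3% of all genes, and the median over the members was 0.47 against 0.081 over all genes. After normexp background correction in place of the scanner's, the members' median was -0.24, beside -0.19 over all genes. These shares and medians were not tested, and only single genes were. In the limma fit over all genes, 0 of 28 members had an adjusted p under 0.05, and 0.0% of all genes did. At an unadjusted p under 0.05 there were also 0 members, while 9.65% of all genes were higher in hNAG-1 and 3.66% lower. The arrays of the 2 genotypes did not overlap for 3 members, Cd8a, Cd8b1 and Ltb, all higher in hNAG-1, a share of 3 in 28 where 15.0% of all genes were higher without overlap and 5.98% lower. With normexp correction Cd8b1 and Ltb had log2 fold changes of 0.66 and 0.65, and that of Cd8a turned to -0.27. The adjusted p of the members lay between 0.38 and 0.999.

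**Figure D1:**
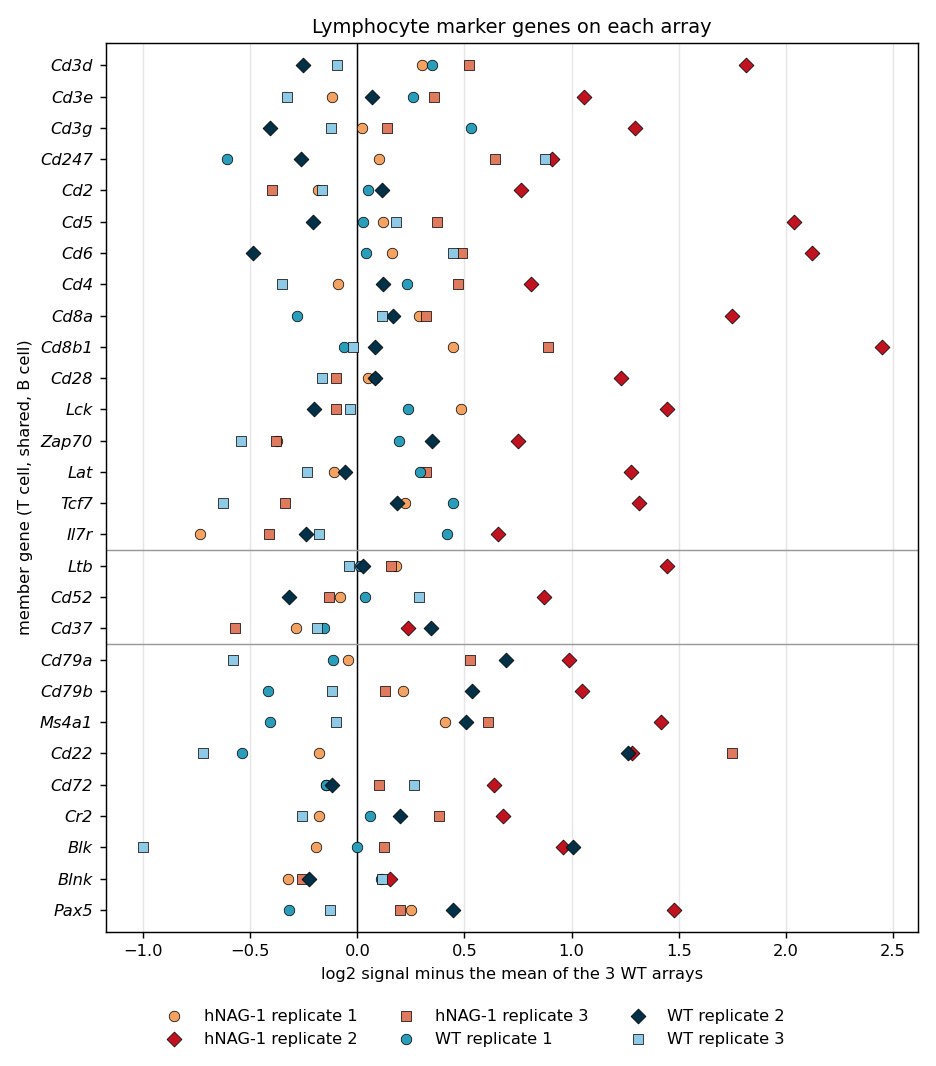
Log2 signal of the 28 measured members on each array, minus the mean of the 3 WT arrays, with hNAG-1 arrays in warm colours and WT arrays in blue; horizontal lines part T cell, shared and B cell genes. hNAG-1 replicate 2 (red diamonds) is the highest point in 25 of 28 rows, and WT replicate 2 (dark blue diamonds) is the highest in 2.

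The CD3 and zeta chains carry the signal of the T cell receptor into the cell. Cd3d, which encodes the delta chain, gave 176, 502 and 205 in the hNAG-1 pools and 182, 119.9 and 134 in the WT pools. The second hNAG-1 pool stood alone and the other 5 overlapped, and the log2 fold change of 0.88 ± 0.43 (SE, n = 3 each) had a limma p of 0.0892 before adjustment and 0.444 after it. Cd3e, the epsilon chain, gave 56.9, 129 and 79.3 in hNAG-1 and 74.1, 64.8 and 49.2 in WT. Cd3g, the gamma chain, gave 87.7, 212 and 95.1 in hNAG-1 and 125, 65.1 and 79.3 in WT. For both genes the genotypes overlapped outside the second hNAG-1 pool, and the log2 fold changes were 0.43 ± 0.333 and 0.49 ± 0.42 (SE).

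Cd247, the zeta chain, followed the other chains least closely. Its brightest probe, a single stretch of 60 bases, gave 204, 356 and 296 in hNAG-1 and 124, 158 and 348 in WT, so that the third WT pool nearly reached the second hNAG-1 pool. The probe that bridges an intron, shown above, gave 35.0, 125 and 153.5 in hNAG-1 and 27.5, 41.6 and 48.7 in WT. On it hNAG-1 replicate 3 was highest and the third WT pool was not set apart, with a log2 fold change of 1.20 ± 0.595 (SE, unadjusted p = 0.0916) where the brightest probe had 0.55 ± 0.429 in the same limma fit over probes.

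The coreceptors bind MHC molecules beside the T cell receptor, CD4 on class II and the CD8 alpha and beta chains on class I. Cd8b1 gave 207, 828 and 281 in hNAG-1 and 146, 161 and 150.0 in WT. Every hNAG-1 pool lay above every WT pool, and the log2 fold change of 1.26 ± 0.515 (SE, n = 3 each) was the largest of the members, with a limma p of 0.0516 before adjustment and 0.38 after it. Cd8a gave 46.6, 128 and 47.6 in hNAG-1 and 31.4, 42.8 and 41.3 in WT, a log2 fold change of 0.79 ± 0.428 (adjusted p = 0.482, limma). hNAG-1 replicates 1 and 3 exceeded the highest WT pool by a narrow margin. The 2 dimmer Cd8a probes gave log2 fold changes of 0.93 and 0.98, with the second hNAG-1 pool highest on each. Cd4 gave 24.4, 45.6 and 36.0 in hNAG-1 and 30.5, 28.3 and 20.4 in WT, with overlap and a log2 fold change of 0.40 ± 0.28.

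The name Cd8b1 was carried by a further probe, which lies on chromosome 5 at chr5:114364254-114364313 on mm7, whereas the gene is on chromosome 6. That probe was brighter, with 1660.2, 1443 and 1377 in hNAG-1 and 1750.0, 1788 and 1420.2 in WT, and its log2 fold change was -0.14 ± 0.145 (SE). It showed no high value on hNAG-1 replicate 2 and was not used for Cd8b1. Taking the brightest probe by the file's name alone would replace the largest positive value of the members by this one.

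**Figure D2:**
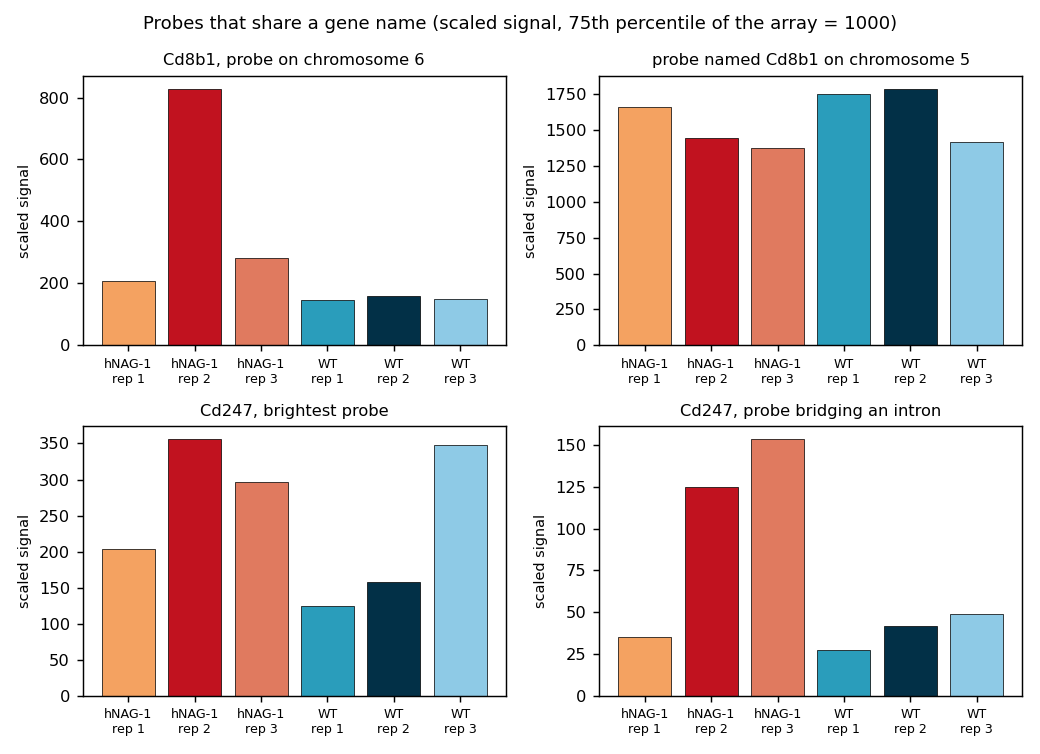
Scaled signal (75th percentile of the array = 1000) on each array for the 2 probes named Cd8b1 and for 2 probes of Cd247, with hNAG-1 arrays left of WT arrays. The Cd8b1 probe on chromosome 6 reaches 828 on hNAG-1 replicate 2 and the one on chromosome 5 stays between 1377 and 1788, and the 2 Cd247 probes differ on WT replicate 3.

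The accessory receptors adjust the strength and adhesion of T cell contacts. Cd6, whose product binds CD166 on partner cells, gave 265, 1031 and 332 in hNAG-1 and 243, 169 and 322 in WT. Cd5, whose product dampens receptor signalling in T cells and in B-1 cells, gave 184, 696 and 219 in hNAG-1 and 173, 146 and 192 in WT. On these probes the second hNAG-1 pool was over 3 times the other pool on the same slide (3.10 times for Cd6 and 3.18 times for Cd5), and the remaining pools overlapped. A dimmer Cd6 probe gave 21.7, 47.1 and 37.1 in hNAG-1 and 27.4, 25.1 and 23.2 in WT. There the second hNAG-1 pool was less far above the third, and the log2 fold change was 0.42 ± 0.294 (SE). For the brighter Cd6 probe and for Cd5, the statistics were as follows. The log2 fold changes were 0.93 ± 0.56 (adjusted p = 0.524) and 0.84 ± 0.519 (adjusted p = 0.529, limma). Cd2, an adhesion receptor that binds CD48 in mice, gave 93.1, 179.6 and 80.3 in hNAG-1 and 109.5, 115 and 94.5 in WT. Without its second pool, hNAG-1 lay wholly below WT for Cd2, with a log2 fold change of -0.29 in place of 0.06. Cd28, the receptor for costimulation, was dim, well above background on 2 arrays of each genotype, with 12.5, 28.4 and 11.3 in hNAG-1 and 12.8, 12.8 and 10.8 in WT.

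The kinases and the scaffold next to the receptor again had their highest value in the second hNAG-1 pool. Lck, the kinase bound to CD4 and CD8, gave 283, 551 and 189 in hNAG-1 and 238, 176 and 198 in WT, a log2 fold change of 0.61 ± 0.401 (SE, adjusted p = 0.552, limma). Lat, the scaffold on which the signal is assembled, gave 208, 544 and 281 in hNAG-1 and 275, 216 and 191 in WT. Zap70, the kinase recruited to the CD3 and zeta chains, gave 73.1, 159 and 72.9 in hNAG-1 and 109, 121 and 65.1 in WT, a log2 fold change of -0.0025 ± 0.398. For Zap70 the other hNAG-1 pools lay among the WT pools, and for Lat 1 of them did and the other lay just above. Trat1, not tested, gave 19.2, 22.3 and 5.6 in hNAG-1 and 23.1, 9.0 and 12.6 in WT, and the value of the second hNAG-1 pool was not well above background.

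Tcf7 encodes a transcription factor of naive and memory T cells, and Il7r the receptor chain through which IL-7 sustains them. Tcf7 gave 64.1, 136 and 43.4 in hNAG-1 and 74.8, 62.4 and 35.5 in WT, a log2 fold change of 0.40 ± 0.495 (adjusted p = 0.75, limma). Il7r gave 52.3, 137 and 65.3 in hNAG-1 and 116, 73.6 and 76.9 in WT, a log2 fold change of -0.16 ± 0.403. In Il7r hNAG-1 replicates 1 and 3 lay below every WT pool. A dimmer Il7r probe had a log2 fold change of 0.12, so the sign of this gene was not shared by its probes.

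Of the shared members, Ltb was the one with no overlap between genotypes. Ltb encodes lymphotoxin beta, a membrane cytokine that organises lymphoid tissue, and gave 1716, 4131 and 1688 in hNAG-1 and 1529, 1543 and 1477 in WT. The WT pools were close together and hNAG-1 replicates 1 and 3 were just above them, and the log2 fold change was 0.59 ± 0.368 (SE, adjusted p = 0.53, limma). Cd52, a small surface glycoprotein of lymphocytes and some myeloid cells, gave 3661, 7100.0 and 3534 in hNAG-1 and 3971, 3104 and 4727 in WT. Cd37, a tetraspanin most abundant on B cells, gave 140.4, 202 and 115 in hNAG-1 and 154, 218 and 150.3 in WT. For Cd52 the second hNAG-1 pool again stood alone, while for Cd37 WT replicate 2 was highest and the log2 fold change was -0.21 ± 0.262.

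The B cell members shared the high value of hNAG-1 replicate 2 but several of them were also high on WT replicate 2. Cd79b, a signalling chain of the B cell receptor, gave 1270.0, 2269 and 1199 in hNAG-1 and 820.2, 1588 and 1011 in WT. Its partner chain Cd79a gave 23.2, 47.4 and 34.4 in hNAG-1 and 22.1, 38.6 and 16.0 in WT. For both, the second pool of each genotype was the highest of that genotype. Ms4a1, which encodes CD20, gave 494, 997 and 568 in hNAG-1 and 281, 529.5 and 348 in WT, a log2 fold change of 0.81 ± 0.353 (SE, n = 3 each), with a limma p of 0.0632 before adjustment and 0.398 after it. The first hNAG-1 pool lay below the second WT pool for Ms4a1, and the other hNAG-1 pools lay above every WT pool. A second Ms4a1 probe had a log2 fold change of 0.77.

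The inhibitory receptors and the complement receptor of B cells varied less uniformly. Cd22, whose product binds sialic acid and restrains the B cell receptor, gave 62.9, 173 and 239 in hNAG-1 and 49.0, 171 and 43.2 in WT. Both hNAG-1 replicates 2 and 3 and WT replicate 2 were high, and the SE was the largest of the members, with a log2 fold change of 0.95 ± 0.721 (adjusted p = 0.603, limma). A second, dim Cd22 probe gave 6.4, 20.4 and 5.5 in hNAG-1 and 10.8, 10.9 and 2.8 in WT. It was well above background on hNAG-1 replicate 2 alone, so the high value of hNAG-1 replicate 3 rests on 1 probe. Cd72, another inhibitory receptor, gave 157, 269.8 and 186 in hNAG-1 and 157, 159.8 and 208 in WT. Cr2, the complement receptor CD21, gave 48.1, 87.2 and 70.9 in hNAG-1 and 56.8, 62.6 and 45.5 in WT. The genotypes overlapped for both genes, with log2 fold changes of 0.20 ± 0.24 and 0.29 ± 0.256.

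Pax5 encodes the factor that maintains B cell identity, and gave 21.7, 50.7 and 20.9 in hNAG-1 and 14.6, 24.8 and 16.7 in WT, a log2 fold change of 0.64 ± 0.407 (adjusted p = 0.54, limma). Blk, a Src family kinase of B cells, was well above background on 2 arrays of each genotype and gave 16.1, 35.8 and 20.1 in hNAG-1 and 18.4, 37.0 and 9.2 in WT, a log2 fold change of 0.30 ± 0.568 (adjusted p = 0.842, limma). In both genes the second pool of each genotype was its highest. Blnk, an adaptor of the B cell receptor that macrophages also make, gave 2308, 3202 and 2416 in hNAG-1 and 3114, 2467 and 3128 in WT. Its second WT pool was the lowest of that genotype, unlike in the other B cell genes, and its log2 fold change was -0.14 ± 0.181.

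Leaving out hNAG-1 replicate 2 showed how far the fold changes rested on it. That array was picked for its high values in these members, so lower fold changes without it follow from that choice, and only their size is described. The median over the T cell members was 0.49 on the log2 scale with all arrays and 0.15 without that array, and over the B cell members 0.46 and 0.17, where the medians over all genes were 0.081 and 0.035. Of the 28 members, 18 then remained above 0 (64.3%, against 55.5% of all genes). Cd8b1 had a log2 fold change of 0.67 ± 0.186 without it, with an adjusted p of 0.589 in the limma fit, and Cd3d of 0.41 ± 0.229. Without that array 7 members had no overlap between genotypes. Cd8a, Cd8b1 and Ltb were higher in hNAG-1, where 17.4% of all genes were, and Cd2, Il7r, Cd37 and Blnk were lower, where 9.65% of all genes were.

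**Figure D3:**
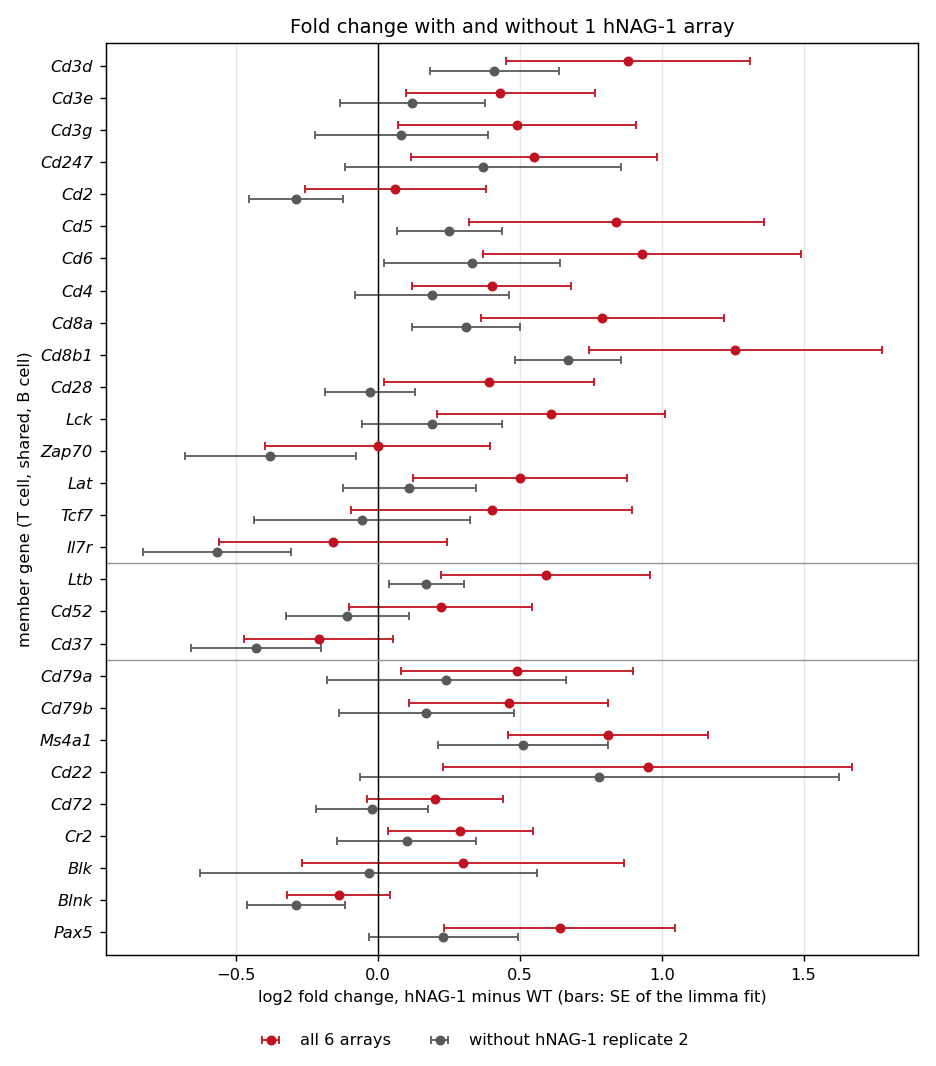
Log2 fold change of each measured member, hNAG-1 minus WT, with all 6 arrays (red) and without hNAG-1 replicate 2 (grey); bars are the SE of the limma fit. Every grey point lies left of its red point, and Cd8b1 moves to 0.67 from 1.26. The array left out was picked for its high values in these members, so a shift to the left follows from that choice.

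On the slide of hNAG-1 replicates 2 and 3, 27 of the 28 members were higher on replicate 2, Cd22 being the exception. That array was picked for its high values in these members, so this count largely restates that choice. The share of all genes higher on replicate 2 than on replicate 3 was not computed. hNAG-1 replicate 3 was the array with the next highest signal for 10 of 28 members and 8 of 16 T cell members, as it was for 23.4% of all genes. Its T cell median lay 0.32 above the WT mean on the log2 scale and its B cell median 0.20, beside 0.091 over all genes and 1.29 and 0.99 for these members on hNAG-1 replicate 2. On the slide that held both genotypes, hNAG-1 replicate 1 against the 3 WT arrays gave a median log2 difference of 0.073 over the T cell members and -0.15 over the B cell members, beside -0.013 over all genes. With 1 hNAG-1 array on that slide, the comparison rests on 1 pool of 2 mice.

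Other lymphocyte genes were read from lists of T cell and B cell genes outside the members. Of 26 measured T cell genes, 19 were highest on hNAG-1 replicate 2, 18 had a log2 fold change above 0 (69.2%, against 61.3% of all genes) and 0 had an adjusted p under 0.05. Their median was 0.32 with all arrays, -0.036 without hNAG-1 replicate 2 (12 of 26 above 0, 46.2% against 55.5% of all genes) and -0.29 after normexp correction. Over all genes these medians were 0.081, 0.035 and -0.19. On hNAG-1 replicate 2 the median of the 26 genes lay 0.94 above the WT mean on the log2 scale, where the members' T cell median lay 1.29 above it. Cd27, a costimulatory receptor, was the only one with an unadjusted p under 0.05, with 46.2, 109 and 76.3 in hNAG-1 and 25.6, 37.0 and 40.5 in WT (log2 fold change 1.11 ± 0.355, adjusted p = 0.307, limma). Lef1, a relative of Tcf7 singled out after its values were seen, gave 36.9, 191 and 36.1 in hNAG-1 and 29.6, 32.2 and 31.8 in WT, so that only the second hNAG-1 pool was high.

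Of 28 measured B cell genes outside the members, 18 were highest on hNAG-1 replicate 2 and 4 on WT replicate 2. Of all genes, 29.7% and 13.6% were highest on these arrays. On hNAG-1 replicate 2 the median of the 28 genes lay 0.53 above the WT mean, where that of the B cell members lay 0.99 above it. On WT replicate 2 these medians were 0.17 and 0.51. A log2 fold change above 0 was found for 17 (60.7%, against 61.3% of all genes), and their median was 0.13, beside 0.081 over all genes. The median of the 28 genes was -0.043 without hNAG-1 replicate 2 (13 of 28 above 0, 46.4% against 55.5% of all genes), -0.051 within the slide holding both genotypes and -0.25 after normexp correction. Over all genes these medians were 0.035, -0.013 and -0.19. Vpreb3, a partner of the immunoglobulin chains during assembly, gave 89.0, 166 and 85.0 in hNAG-1 and 45.4, 48.8 and 43.8 in WT, with no overlap and a log2 fold change of 1.23 ± 0.278 (unadjusted p = 0.00488, adjusted p = 0.214, limma). Its WT replicate 2 was not set apart. Fcgr2b, an inhibitory Fc receptor of B cells and macrophages, and Ebf1, a B cell factor that adipocyte precursors also use, were lower in hNAG-1 at an unadjusted p under 0.05, with log2 fold changes of -0.47 ± 0.146 and -0.42 ± 0.115 (adjusted p = 0.298 and 0.258, limma).

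Markers of other cells differed in whether they moved with the lymphocyte genes. All 12 measured genes of NK and cytotoxic cells were highest on hNAG-1 replicate 2, with a median 1.16 above the WT mean on the log2 scale. Their summed scaled signal was 2803, 5477 and 3231 in hNAG-1 and 2713, 1914 and 3142 in WT. Of 8 measured genes of lymph node stroma and high endothelial venules, 5 were highest on that array, as were 29.7% of all genes. The 8 genes had a median 0.64 above the WT mean there, and sums of 2123, 2995 and 1579 in hNAG-1 and 1761, 1768 and 1543 in WT. Among them Glycam1, a ligand for lymphocyte homing made by high endothelial venules, gave 16.3, 51.0 and 26.3 in hNAG-1 and 13.4, 19.6 and 4.0 in WT. Ccl19, a chemokine that draws T cells to lymph nodes, gave 528, 1691 and 481 in hNAG-1 and 704, 597 and 509 in WT. Ccl19 thus made up 1691 of the sum of 2995 on hNAG-1 replicate 2. Of the 5 genes highest on that array, Glycam1, Madcam1 and Tnfsf11 were dim. Their highest values were 51.0, 22.7 and 34.9, so their order over arrays is less certain. Cxcl13, a chemokine that draws B cells, gave 1195, 745 and 653 in hNAG-1 and 648, 785 and 646 in WT and was highest on hNAG-1 replicate 1. Chst4 and Il7, of the same list, were 0.977 and 0.928 times the mean of the other arrays on hNAG-1 replicate 2. The part of lymph node tissue in the members' values was not tested.

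Genes of leukocytes in general stood less far above the WT mean on that array than the lymphocyte genes did. The 8 pan-leukocyte genes had a median 0.12 above the WT mean on hNAG-1 replicate 2, where all genes had 0.14, and 4 of them were highest there. Their sums were 15685, 19693 and 15272 in hNAG-1 and 19166, 16506 and 19188 in WT. All 8 had a log2 fold change below 0 over the 6 arrays, with 0 at an unadjusted p under 0.05. The 14 macrophage genes had medians of -0.32, -0.32 and -0.23 in the hNAG-1 pools and 0.19, -0.14 and -0.072 in the WT pools. Of them 12 had a log2 fold change below 0, and 4 (Cd68, Cd163, Itgam and C1qc) were lower in hNAG-1 at an unadjusted p under 0.05 (limma), of which none passed after adjustment. The 6 genes of lymphatic endothelium had medians of -0.39, -0.72 and -1.08 in the hNAG-1 pools and 0.56, 0.22 and -0.93 in the WT pools. The 10 adipocyte genes lay at 0.18, 0.20 and 0.24 in the hNAG-1 pools and at -0.18, -0.0066 and 0.14 in the WT pools.

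For the B cell members the pancreatic genes moved with WT replicate 2, on which their median lay 3.27 above the WT mean and all 5 were highest. The B cell members' median on that array was 0.51 and that of the T cell members was 0.005. The B cell genes outside the members had a median of 0.17 there. On hNAG-1 replicate 2, where the B cell median was 0.99, the pancreatic median was -0.49. Whether tissue other than fat has a part in the B cell values of WT replicate 2 was not tested.

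**Figure D4:**
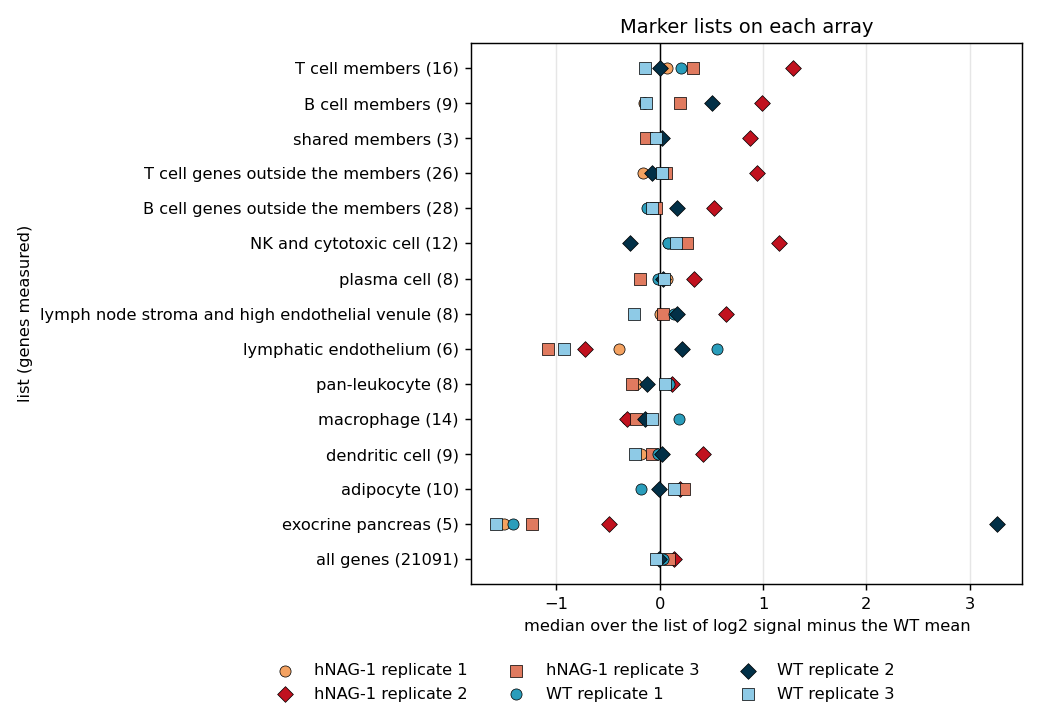
Median over each marker list of the log2 signal minus the WT mean, for each array, with hNAG-1 arrays in warm colours, WT arrays in blue, and the number of genes measured in brackets. hNAG-1 replicate 2 is at 1.29 for the T cell members, 0.99 for the B cell members and 1.16 for NK and cytotoxic genes, and at -0.32 for macrophage genes, while WT replicate 2 is at 0.51 for the B cell members and 3.27 for exocrine pancreas.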

How the data were processed

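RNA of abdominal WAT was measured on 6 single-colour arrays, 3 of hNAG-1 and 3 of WT mice. The authors deposited, for each array, scanner output made with Agilent Feature Extraction (9.5 per the submitters' processing notes), whose processed signal is an intensity on a linear scale, background-subtracted within the array and not normalized between arrays. The study's methods name an Affymetrix array, and the files are of Agilent arrays. Control spots (1639 of 45018) and outlier-flagged spots were left out and spots of a probe averaged, and log2 of the signal minus the array's 75th percentile was taken. That percentile was 896.0, 738.8 and 657.3 in the hNAG-1 pools and 1028.5, 957.6 and 987.7 in the WT pools. Intensities carry no counts, and the number of arrays limits the precision.

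Names came first from the probe's accession, looked up among RefSeq genes (assembly GRCm38.p6), then from symbol, unique synonym or the file's name. For 88 probes the position given by the array design is on another chromosome than the gene of that name, and they were kept apart. The members came from a list of names, with older symbols only where these name no other gene. The 29 members, the marker lists and the tests were chosen with earlier results of these data known.

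The genotypes were fitted in limma 3.58.1 (lmFit, then eBayes; R 4.3.3). Its two-sided p-values were adjusted by Benjamini-Hochberg across 21091 genes, and 0.05 was the threshold. Pools were of different mice, and p-values measure the spread between pools. Lists are described by counts and medians, with no test. All 29 members are named, with full statistics for the 12 that had the smallest unadjusted p or the largest range over arrays; of the other lists, genes with the smallest unadjusted p are named where they bear on the members, and Lef1, Ccl19, Il7 and the macrophage genes were added after their values were seen. As alternatives, normexp correction with an offset of 50 replaced the scanner's background, quantile replaced percentile scaling, the filter on dim probes was made stricter or dropped, probes of 1 gene were averaged, and names were taken from the file alone. Further ones were trended and robust variances, slide as a fixed or random block, the slide holding both genotypes alone, the replicate number as a block, and each array left out in turn.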

Additional observations from a re-analysis of the deposited data

How the results depend on the processing

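The count of members with an adjusted p under 0.05 was 0 under the planned setting and all 17 alternatives, where the lowest adjusted p of a member was 0.227; of all genes, 162 passed with trended and robust variances, 2 with slide as a fixed block and 0 otherwise. The count at an unadjusted p under 0.05 was 0 of 28 with all arrays (13.3% of all genes). Under other settings, chosen for this count after seeing the data, it was 2 under quantile normalization (13.7% of all genes), 1 with probes well above background on all arrays (15.8%), 2 with trended and robust variances (14.7%), 4 with the replicate block (1651 genes higher and 873 lower of 21091), and between 0 and 5 when each array was left out (7.9% to 16.0%). The 5 came without hNAG-1 replicate 1, where they were 17.9% of the members beside 15.1% of all genes. The replicate block changed no other call. Same-numbered arrays correlated at 0.0989, 0.513 and 0.0923 in their deviations from the group means, and arrays of unlike number between -0.419 and 0.336. The labels do not say that the numbers pair the pools, and these correlations cannot decide it. Members whose groups do not overlap numbered 3 with all arrays and 7 without hNAG-1 replicate 2, a comparison chosen after seeing the data. Of all genes, 15.0% were higher and 5.98% lower without overlap with all arrays, and 17.4% and 9.65% without hNAG-1 replicate 2. The median log2 fold change of T cell members, 0.49 with all arrays, was -0.24 after normexp correction, and that of B cell members, 0.46, was -0.27 after normexp and -0.15 with slide as a fixed block or within the slide holding both genotypes; normexp moved the median of all genes to -0.19 from 0.081. Left out in turn, single arrays moved the T cell median between 0.15 and 0.71 and the B cell median between 0.17 and 0.80.

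After normexp correction the log2 fold change turned for Cd3e (-0.32), Cd3g (-0.25), Cd247 (-0.083), Cd2 (-0.41), Cd4 (-0.41), Cd8a (-0.27), Cd28 (-0.45), Tcf7 (-0.23), Cd79a (-0.32), Cd72 (-0.27), Cr2 (-0.35), Blk (-0.44) and Pax5 (-0.42). With slide as a fixed block, and equally within the slide holding both genotypes, it turned for Cd3e (-0.12), Cd2 (-0.18), Cd4 (-0.091), Lat (-0.11), Cd52 (-0.083), Cd79a (-0.046), Cd22 (-0.18), Cd72 (-0.15), Cr2 (-0.18) and Blk (-0.20). With names as in the file it turned for Cd8b1 (-0.14), which then came from the probe on chromosome 5. With each array left out in turn, fold changes took both signs for Cd2 (-0.29 to 0.29), Cd28 (-0.03 to 0.64), Zap70 (-0.38 to 0.19), Tcf7 (-0.058 to 0.77), Il7r (-0.57 to 0.12), Cd52 (-0.11 to 0.40), Cd72 (-0.022 to 0.37) and Blk (-0.20 to 0.80). Cd2, Cd28, Tcf7, Cd52, Cd72 and Blk were below 0 without hNAG-1 replicate 2. Cd28, Blk and Trat1 were near background, so their order over arrays is uncertain. Pax5, Cd79a and Cd4 were well above background on all 6 arrays but also dim, with highest values of 50.7, 47.4 and 45.6. Their order calls for some of the same caution. The causes were not tested.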

Other observations

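Genes of antibody-secreting cells stood outside the comparison of the members. Jchain, which joins immunoglobulin into polymers, gave 1458, 3178 and 721 in hNAG-1 and 757, 499 and 1132 in WT, and Mzb1, a chaperone of immunoglobulin secretion, gave 179, 694 and 142 in hNAG-1 and 114, 182 and 187 in WT. Both were highest on hNAG-1 replicate 2, as were 4 of the 8 measured plasma cell genes. Ighm, the immunoglobulin mu chain, did not share that order and gave 8239, 11488 and 8719.5 in hNAG-1 and 7289, 12454 and 31404 in WT. Its highest value was on WT replicate 3, an array that was the lowest of the 6 for 4 of the 9 B cell members and for 25.2% of all genes. Irf4, a factor of plasma cells and activated lymphocytes, gave 258, 220.2 and 322 in hNAG-1 and 3178, 514 and 141 in WT, with its highest value on WT replicate 1. These genes were named after their values were seen, and none had an adjusted p under 0.05 in the limma fit.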
